A study of Canis lupus familiaris with 8 samples.

Results

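miR-31 is 1 of 452 mature miRNAs in a table of miRNAs from vesicles shed by dog mammary cells. It was taken as the 1 row of the table whose name is cfa-miR-31, and it was followed through all 8 libraries. The study set 5 canine mammary tumour (CMT) lines of carcinoma origin, CMT-12, CMT-27, CMT-28, CMT-47 and CMT-119, beside 3 samples of normal canine mammary epithelial cells, CMEC1, CMEC2 and CMEC3. The labels name no treatment, transgene or age of the dogs. Each CMT line was sequenced once, and the CMEC samples are labelled as biological replicates, without a word on whether they came from separate dogs. All cells grew in synthetic medium without serum. Medium from an initial 24 hours was thrown away, and that of the next 48 hours was harvested on day 3. RNA was taken from 5 mL of it with a kit for exosomal RNA. The medium is bulk material, so fewer vesicles and less miR-31 per vesicle cannot be told apart.

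A miRNA is a short RNA that guides a silencing complex to matching sites in messenger RNAs, and vesicles carry part of a cell's miRNAs into the medium. In human breast cancer cells, miR-31 is described as a restraint on metastasis that acts on several targets at once, among them the small GTPase RHOA, the integrin subunit ITGA5 and radixin. In the mouse mammary gland it is described in stem cells, where it favours Wnt signalling. In other epithelia, such as the skin and the gut, it is also described as promoting growth.

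The table places miR-31 on the minus strand of chromosome 11 of canFam3, from 40904474 to 40904496, at 1 locus. No gene of the RefSeq table for the assembly UU_Cfam_GSD_1.0 spans MIR31, so it was intergenic there. Its protein-coding neighbours in that table were the interferon gene IFNE on one side and MTAP, CDKN2A and CDKN2B on the other, of which MTAP acts in methionine salvage and the last 2 encode inhibitors of the cell cycle. The nearest other miRNA of the table, miR-491, lay 603454 bases away in canFam3. It was chosen by its position, after its values were seen. miR-491 was at 1.38 in CMT-27 and at the floor in the other 7 libraries.

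miR-31 was abundant in no library, and 1 tumour line held most of it. The values are a normalised signal with a lowest value, or floor, of exactly 1. The deposited value of miR-31 was 348 in CMT-27, 10.7 in CMT-119, 9.02 in CMT-47, 8.89 in CMT-28 and 2.32 in CMT-12, against 1.09 in CMEC1 and the floor in CMEC2 and CMEC3. All 5 CMT lines were thus above all 3 CMEC samples. CMT-27 stood far above the other lines, and the 2 ends that separate the groups, CMT-12 and CMEC1, were apart by less than the worth of 1 read in CMT-12 (2.32).

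**Figure D1:**
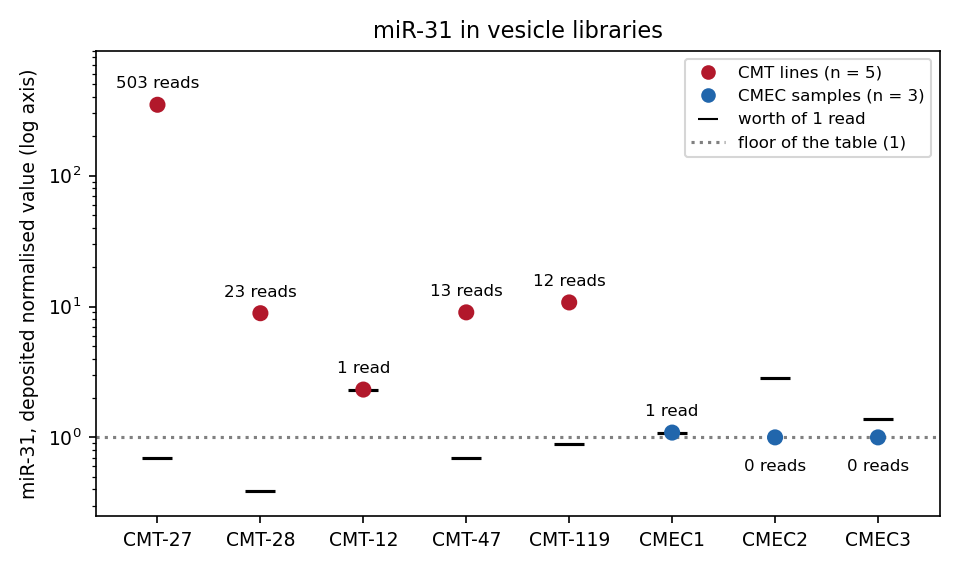
Deposited value of miR-31 (log axis) in 5 CMT lines (red) and 3 CMEC samples (blue), with the recovered reads behind each point, the worth of 1 read in each library (black bars) and the floor of the table (dotted line). CMT-27 is at 348 and the other CMT lines at 2.32 to 10.7, while CMEC2 and CMEC3 lie on the floor.

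Above the floor, the values of a library were whole multiples of 1 step, so the reads behind each value could be recovered. miR-31 had 503 reads in CMT-27, then 23 in CMT-28, 13 in CMT-47, 12 in CMT-119 and 1 in CMT-12, against 1 in CMEC1 and 0 in CMEC2 and CMEC3. The separation of the groups therefore rested on 1 read in CMT-12 and 1 read in CMEC1. CMT-12 had 81138 recovered reads in all and CMEC2 had 85906, the fewest, while CMT-27 had the most, 1405893. The worth of a read spanned 0.386 to 2.32 across CMT and 1.09 to 2.83 across CMEC. Intervals and limits below take in counting error alone, because no molecular identifiers tell copies of a molecule apart.

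As reads per 1000000 recovered reads (RPM), miR-31 stood at 358 in CMT-27 (exact 95% binomial interval 327 to 390). It stood at 27.2 in CMT-28 (17.2 to 40.8), 22.2 in CMT-119 (11.5 to 38.8), 12.4 in CMT-47 (6.63 to 21.3) and 12.3 in CMT-12 (0.312 to 68.7). The CMEC1 level was 2.47 RPM (0.0626 to 13.8). The 0 reads allow up to 8.66 RPM in CMEC3 and 34.9 RPM in CMEC2, as the share of 3 reads. The limit in CMEC3 lay below the level in each of the 5 CMT lines, while the limit in CMEC2 lay above that in 4 of them. At the depth of CMEC2, the level in CMT-27 would give 30.7 reads, and those in the other CMT lines 1.06 to 2.34 reads. A difference between CMEC2 and those 4 lines was therefore not detectable at this depth.

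**Figure D2:**
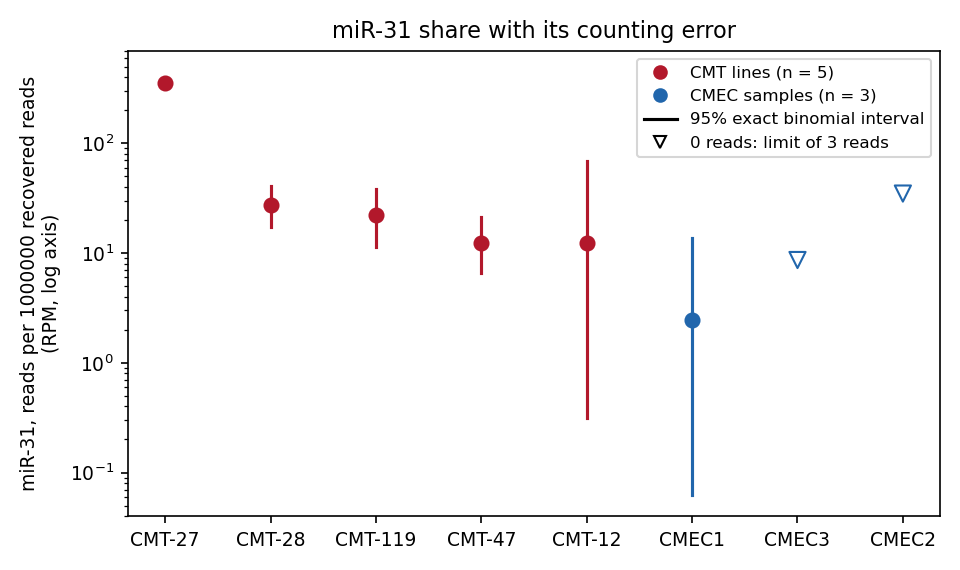
RPM of miR-31 (reads per 1000000 recovered reads, log axis) in each library, ordered from high to low, with exact 95% binomial intervals for CMT lines (red) and CMEC1 (blue), and open triangles at the share of 3 reads for the 2 CMEC libraries with 0 reads. The intervals of CMT-28, CMT-119, CMT-47 and CMT-12 overlap, and the limit of CMEC2 (34.9) lies above their levels.

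The order of the levels was firm at its top and only in part below it. Fisher's exact test was run on the reads of all 28 pairs of libraries with Benjamini-Hochberg adjustment, which compares libraries and not conditions. It separated CMT-27 from each of the other 7 libraries (adjusted p at most 1.02e-10, the pair with CMT-12). Among the other 4 CMT lines, 0 of 6 pairs differed beyond counting error, with CMT-28 and CMT-47 the nearest to it (adjusted p = 0.0655). CMT-28 exceeded CMEC1 (adjusted p = 0.00512) and CMEC3 (adjusted p = 0.00252), and so did CMT-119 (adjusted p = 0.0257 and 0.0137). CMT-47 and CMT-12 were separated from none of the CMEC samples, and CMEC2 was separated from CMT-27 alone. By deposited value CMT-119 (10.7) and CMT-47 (9.02) stood above CMT-28 (8.89), since a read was worth less in CMT-28 (0.386) than in CMT-47 (0.694) and CMT-119 (0.895).

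Summed over the CMT lines there were 552 miR-31 reads of 3917980, or 141 RPM (129 to 153), and 91.1% of them came from CMT-27. The CMEC samples together gave 1 read of 836781, or 1.20 RPM (0.0303 to 6.66). The ratio was 118, with a counting interval of 21.1 to 4665. Without CMT-27 the lines gave 49 reads of 2512087, or 19.5 RPM (14.4 to 25.8), and the ratio was 16.3 (2.80 to 658). Both ratios hang on the 1 read of CMEC1, and neither carries the spread between lines.

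Between the groups, miR-31 was 3.05 ± 1.30 higher in CMT vesicles on the scale of log2(value + 1) (SE, 5 against 3 libraries, 95% interval 0.30 to 5.80), which understates changes of low miRNAs. The log2 value averaged 4.07 ± 2.55 in the CMT lines (SD, n = 5) and 1.02 ± 0.036 in the CMEC samples (SD, n = 3), where the small SD reflects 2 libraries at the floor. The difference did not pass the threshold: limma's adjusted p over 193 miRNAs was 0.385 (unadjusted 0.0319), the 16th smallest p. limma called 0 of the 193, or 0%, at an adjusted p under 0.05, as did limma-voom on recovered reads, and 21 of them (10.9%) had an unadjusted p under 0.05. miR-31 was 1 of the 13 (6.74%) that did so with higher values in CMT. The median difference of all 193 was 0.75, so miR-31 lay 2.31 above it. The difference was 1.53 with a pseudocount of 10. Among the 193, 15 (7.77%) had every CMT value above every CMEC value, miR-31 among them, and 3 (1.55%) had every CMT value below. These counts depend on the scaling: they were 4 above and 5 below on the share scale, where miR-31 was still apart, and 6 above and 6 below with the library median subtracted or 5 above and 7 below after median centring, where it was not. Of the miRNAs with an unadjusted p under 0.05, 13 were higher and 8 lower in CMT as deposited, against 8 higher and 17 lower after median centring.

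CMT-27 weighed on the size of this difference. Without it the difference was 1.96 ± 0.63 (SE, 4 against 3 libraries, limma adjusted p = 0.243). Sample weights, which gave CMT-27 the lowest weight (0.177), put it at 2.45 ± 0.73, and limma's adjusted p was then 0.0489, with 15 of 193 miRNAs called. CMT-27 had the highest value of 116 of the 193 miRNAs (60.1%) as deposited, where CMT-12 had that of 18. CMT-27 had the highest share of 59 (30.6%), fewer than CMT-12 with 71. Many miRNAs other than miR-31 were thus highest in CMT-27, but by share CMT-12 led. The median log2 value over the 193 miRNAs was 6.93 in CMT-27 and 3.86 to 4.73 in the rest of CMT, against 3.596 to 4.82 across CMEC. The part of this in the miR-31 value was not tested.

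Set against the library median and against miR-21, the groups overlapped, and in both cases the floor has a part in the overlap. Less the library median, miR-31 was at 1.52 in CMT-27, -0.54 in CMT-119, -0.55 in CMT-28, then -1.30 in CMT-47 and -3.00 in CMT-12, against -3.76 in CMEC1, -2.62 in CMEC2 and -2.60 in CMEC3. CMT-12 then lay among the CMEC samples. The difference was 2.22, with means of -0.78 ± 1.625 (SD, n = 5) in CMT, against -2.99 ± 0.66 (SD, n = 3) in CMEC (two-sided exact permutation p = 0.107, and 0.161 adjusted over 3 scales). Since CMEC2 and CMEC3 are at the floor, their values on this scale are set by the floor and the library median alone. They are neither levels nor upper bounds, since the limit of 3 reads was worth 8.50 in CMEC2 and 4.16 in CMEC3. The difference was 2.86 with a pseudocount of 0.1 and 0.90 with one of 10, and without CMT-12 it was 2.69 and the exact permutation p 0.0286, the smallest that 4 against 3 allows.

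miR-21, a miRNA widely described as oncogenic, led every library. Its deposited value was 1387-fold that of miR-31 in CMT-27, 20195-fold to 43744-fold in the other CMT lines and 209354-fold in CMEC1. As a log2 difference to miR-21, miR-31 was at -13.65 ± 1.88 over the CMT lines (SD, n = 5), against -16.02 ± 0.87 over the CMEC samples (SD, n = 3). The value of CMT-47 (-15.27) lay below that of CMEC2 (-15.06). With 0 reads in CMEC2, the value there is the floor less miR-21 and not a level. The difference of 2.36 had a two-sided exact permutation p of 0.0714, or 0.161 adjusted. It was 3.04 with a pseudocount of 0.1 (exact permutation p = 0.0357) and 0.84 with one of 10. With let-7a in place of miR-21 the difference was 3.07 (exact permutation p = 0.0179, the smallest that 56 splits allow).

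As a share of the summed value, miR-31 held 0.0358% in CMT-27, followed by 0.00272% in CMT-28, 0.00222% in CMT-119, 0.00124% in CMT-47 and 0.00123% in CMT-12, against 0.000247% in CMEC1. The floor would hold 0.000410% in CMEC2 and 0.000208% in CMEC3. The mean was 0.00864% ± 0.0152 over the CMT lines (SD, n = 5), against 0.000289% ± 0.000107 over the CMEC samples (SD, n = 3). The SD in CMT exceeded its mean because of CMT-27, and the two-sided exact permutation p was 0.393, also after adjustment. Without CMT-27 the difference was 0.00156% and the groups stayed apart (exact permutation p = 0.0286, the smallest that 4 against 3 allows). On the log2 of the share the difference was 3.53 (exact permutation p = 0.0357). These results take the floor as the value of CMEC2 and CMEC3. The limit of 3 reads in CMEC2 (34.9 RPM) lay above the levels of all CMT lines but CMT-27.

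**Figure D3:**
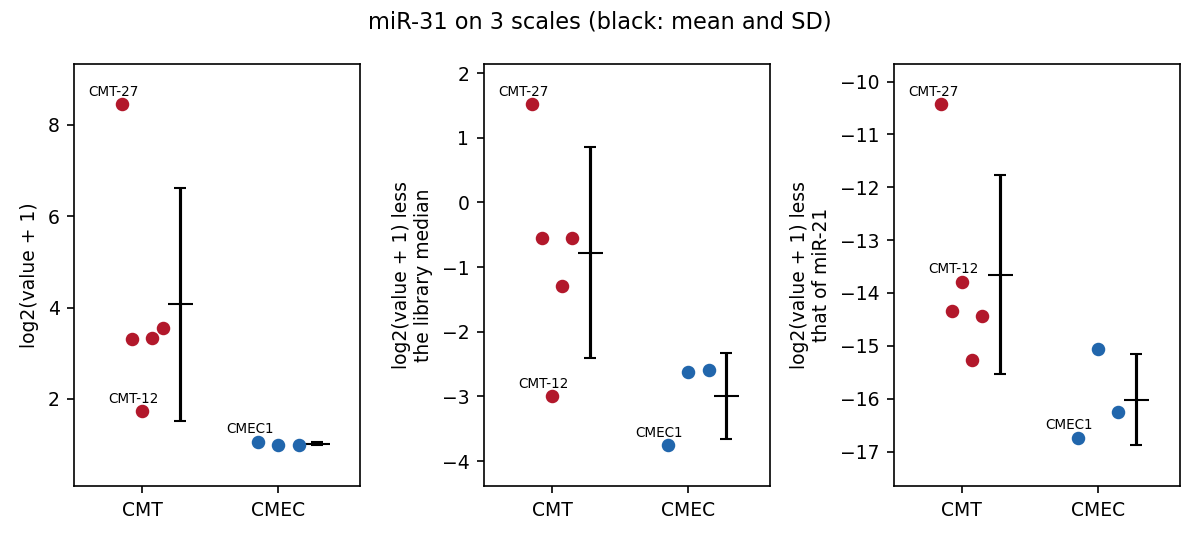
miR-31 in each CMT line (red, n = 5) and CMEC sample (blue, n = 3) as log2(value + 1), as the same less the library median over 193 miRNAs, and as the same less miR-21, with the mean and SD in black. CMT-27 is the highest point of each panel, and the groups are apart in the left panel but overlap in the middle panel (CMT-12) and the right panel (CMEC2, which like CMEC3 is drawn at the floor).

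By rank within its library, miR-31 was 71st of 209 miRNAs above the floor in CMT-27. It was 106th of 152 in CMT-28, 109th of 161 in CMT-119, 127th of 174 in CMT-47 and 149th of 168 in CMT-12, against 174th of 199 in CMEC1. It was thus above the middle of the detected miRNAs in CMT-27 and near the bottom in CMT-12 and CMEC1. By mean share over the 8 libraries it was 117th of 452, at 0.00551%. Its neighbours in that order, miR-542 at 0.00561% and miR-421 at 0.00531%, were spread more evenly over the libraries. miR-542 spanned 15.5 to 50.7 across CMT and 5.55 to 37.0 across CMEC. miR-421 spanned 6.95 to 75.4 across CMT and 1 to 32.6 across CMEC, with the lowest value in CMEC2.

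Among the 5 CMT lines the SD of miR-31 was 2.55 on the log2 scale, the 25th largest of 193 miRNAs, whose median was 1.49. Without CMT-27 it was 0.84. CMT-12, the other line with much of the epithelial miR-200c, had little miR-31. miR-200c, a miRNA that keeps epithelial cells from turning mesenchymal, reached 13903 in CMT-27 and 2022 in CMT-12, but at most 8.06 in the rest of CMT, against 5.44 to 25.5 across CMEC. miR-203, described in skin and other stratified epithelia, reached 624.6 in CMT-27 and 879 in CMT-12. CMT-27 had 358 RPM of miR-31 where CMT-12 had 12.3, and that pair differed beyond counting error (Fisher's exact test, adjusted p = 1.02e-10).

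The labels call all cells mammary epithelial or carcinoma cells. Of the 10 epithelial miRNAs of the list, miR-141 was at the floor in all 8 libraries, and miR-200b and miR-429 were at the floor in CMT-28, CMT-47, CMT-119 and the 3 CMEC samples. Others were above the floor in all 8. miR-182 spanned 1813 to 12045 across CMT and 34.7 to 2108 across CMEC. miR-183 spanned 801 to 4496 across CMT and 14.2 to 1676 across CMEC. In CMT-28, CMT-47, CMT-119 and CMEC1, miR-182 and miR-183 were the highest members of the list. The summed epithelial list held 7216 to 53711 RPM across CMT and 202 to 8746 RPM across CMEC, and it was highest in CMT-12 and CMT-27. The 4 mesenchymal and smooth muscle miRNAs held 152 to 139198 RPM across CMT, with the lowest sum in CMT-27, and 16847 to 185715 RPM across CMEC. The blood list held 163 to 2392 RPM across CMT and 46.2 to 1410 RPM across CMEC, with miR-223 at the floor in all libraries. Its highest sum, in CMT-27, was mostly miR-363, with a value of 2312 there, where the other members were at most 10.4. miR-486 was above the floor in all 8 libraries and highest in CMT-12 (139). miR-451 and miR-142 were highest in CMT-12 (41.7 and 27.8) and next in CMEC2 (25.5 and 19.8). Of single markers, the liver miRNA miR-122 reached 97575 RPM in CMT-12. It held 9.46 to 2773 RPM in the rest of CMT, against 14.8 to 335 RPM across CMEC. The neural list held 1654 to 11006 RPM in CMT and 2701 to 3248 RPM in CMEC. The skeletal muscle list held 80.4 to 727 RPM in CMT and 433 to 14935 RPM in CMEC, and the endothelial miR-126 held 0 to 27.2 RPM in CMT and 0 to 4.95 RPM in CMEC. The part of these cell types in the miR-31 levels was not tested.

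The miRNAs that followed miR-31 most closely were sought by the SD, over the 8 libraries, of their log2 difference to miR-31. Among the 105 miRNAs above the floor in all libraries, the 5 smallest SDs were 0.91 for miR-15b, 0.98 for miR-196a, 1.07 for miR-19b, 1.19 for miR-23b and 1.22 for miR-331, where the median of the 105 was 2.08. This is a description over 8 libraries in which CMT-27 is high and the CMEC samples are low. miR-31 is at the floor in CMEC2 and CMEC3 and rests on 1 read each in CMEC1 and CMT-12. The SDs and their order depend in part on those values. miR-15b, of a family described as acting on the cell cycle and on BCL2, was at 247 in CMT-27, then 34.8 in CMT-28, 15.96 in CMT-47, with 11.6 in both CMT-119 and CMT-12, against 7.61 in CMEC1, 2.83 in CMEC2 and 2.77 in CMEC3. As with miR-31, every CMT line was above every CMEC sample as deposited, which held for 15 of the 193 miRNAs tested (7.77%). CMT-27 was highest, as for 116 of them (60.1%). Since miR-15b was picked for its likeness to miR-31, the shared order is no separate result. The log2 difference of miR-15b was 2.58 ± 1.30 (SE, limma adjusted p = 0.469).

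miR-196a, encoded in Hox clusters, was at 1566 in CMT-27 and 9.27 to 111 in the rest of CMT, against 14.2 to 24.95 across CMEC, so the groups overlapped. miR-19b, of the proliferation-promoting miR-17-92 cluster, was at 564 in CMT-27 and 26.9 to 68.8 in the rest of CMT, against 5.55 to 22.8 across CMEC. miR-23b, a neighbour of miR-27b and miR-24, was at 17542 in CMT-27 and 475 to 2281 in the rest of CMT, against 652 to 1652 across CMEC. miR-331 was at 107 in CMT-27 and 6.96 to 31.7 in the rest of CMT, against 1.39 to 5.67 across CMEC. On the share scale the same 5 were nearest. Without CMT-27, miR-15b (SD 0.73) and miR-331 (0.86) were still among the 5 nearest. miR-23b (0.8824) and miR-19b (0.8838) came 6th and 7th, just behind the 5th (let-7g, 0.8812), and miR-196a came 13th.

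**Figure D4:**
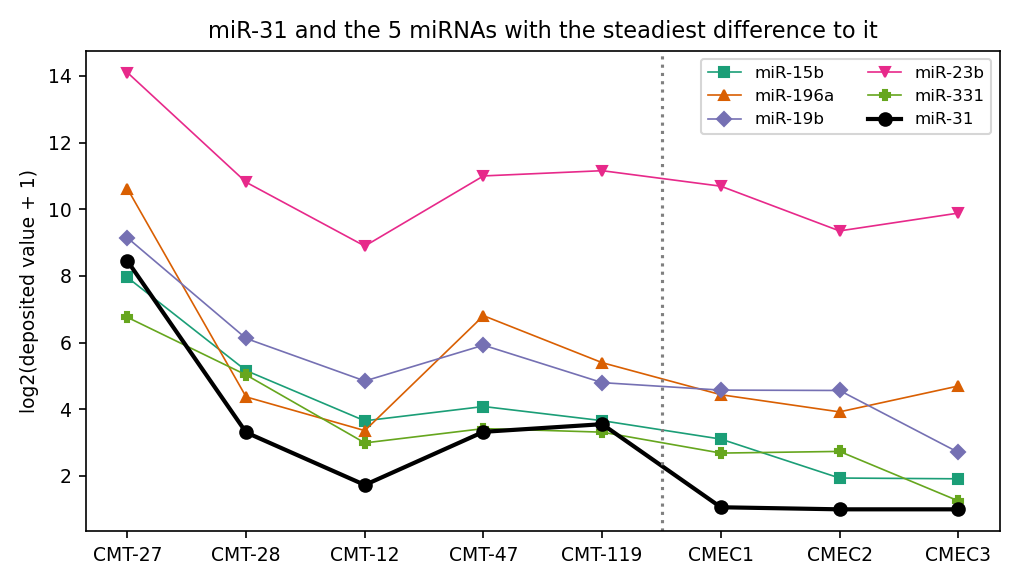
log2(deposited value + 1) of miR-31 (black) and of the 5 miRNAs whose difference to it varied least, in 5 CMT lines (left of the dotted line) and 3 CMEC samples (right), with lines drawn only to guide the eye. All 6 miRNAs are highest in CMT-27, and miR-15b runs nearest to parallel with miR-31 (SD of the difference 0.91). The miR-31 points of CMEC2 and CMEC3 are the floor.

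miR-31 is usually discussed with other miRNAs of breast cancer metastasis. Of 18 such miRNAs in the table, 10 were tested and 0 passed limma's threshold in either direction, while 1 (miR-9) had an unadjusted p under 0.05, against 21 of all 193 (10.9%). Their median difference was 2.30, against 0.75 for all 193 miRNAs tested. The excess of 1.55 was 0.48 without CMT-12, 0.59 without CMT-27, 0.63 without CMEC1 and 0.95 with limma-voom. CMT-27 had the highest value of 7 of the 10 and the highest share of 4, against 60.1% and 30.6% of all tested miRNAs.

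Among members described as restraining metastasis in human breast cancer, miR-335 was also highest in CMT-27. It was at 201 in CMT-27 and 1.16 to 12.5 in the rest of CMT, against 3.26 to 5.67 across CMEC, a log2 difference of 1.31 ± 1.32 (SE, limma adjusted p = 0.712). miR-126 was at 23.5 in CMT-27, 8.89 in CMT-28 and the floor in the other CMT lines. In CMEC it was at 2.18 in CMEC1 and the floor in CMEC2 and CMEC3. As RPM, miR-126 stood at 24.2 in CMT-27 and 27.2 in CMT-28. miR-206, better known from skeletal muscle, did not leave the floor in any CMT line or in CMEC1 and was at 2570 in CMEC2 and 298 in CMEC3. These 3 thus had no common direction, which leaves out the miR-200 family of the list. Of that family, miR-200a (380), miR-200b (269), miR-200c (13903) and miR-429 (1128) were highest in CMT-27 by deposited value and next in CMT-12. The summed value was 972719 in CMT-27 and 188422 in CMT-12. By share, miR-200a, miR-200b and miR-429 were therefore higher in CMT-12, and miR-200c was higher in CMT-27. miR-141 was at the floor in all libraries. With 2 libraries above the floor, miR-206 was not tested.

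Among members described as promoting metastasis, miR-9 spanned 121 to 5597 across CMT and 2.83 to 251 across CMEC. Its log2 difference was 4.81 ± 1.498 (SE, limma adjusted p = 0.196). miR-155, an immune miRNA also described in invasion, spanned 60.9 to 1211 across CMT and 7.61 to 79.3 across CMEC. miR-10b was at 1.39 in CMT-47 and the floor in the other CMT lines, and at 5.55 in CMEC3 and the floor in the other CMEC samples. miR-210, a miRNA of hypoxia, was at 3.47 in CMT-47 and 1.09 in CMEC1, and at the floor elsewhere.

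miR-146a and miR-146b, which restrain inflammatory signalling, were highest in lines other than CMT-27. miR-146a was at 1445 in CMT-119 and 6.18 to 185.5 in the rest of CMT, against 2.77 to 17.0 across CMEC. miR-146b was at 15044 in CMT-12 and 21.2 to 241 in the rest of CMT, against 33.7 to 48.2 across CMEC. miR-193b spanned 1 to 8.06 across CMT and 2.83 to 6.53 across CMEC.

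**Figure D5:**
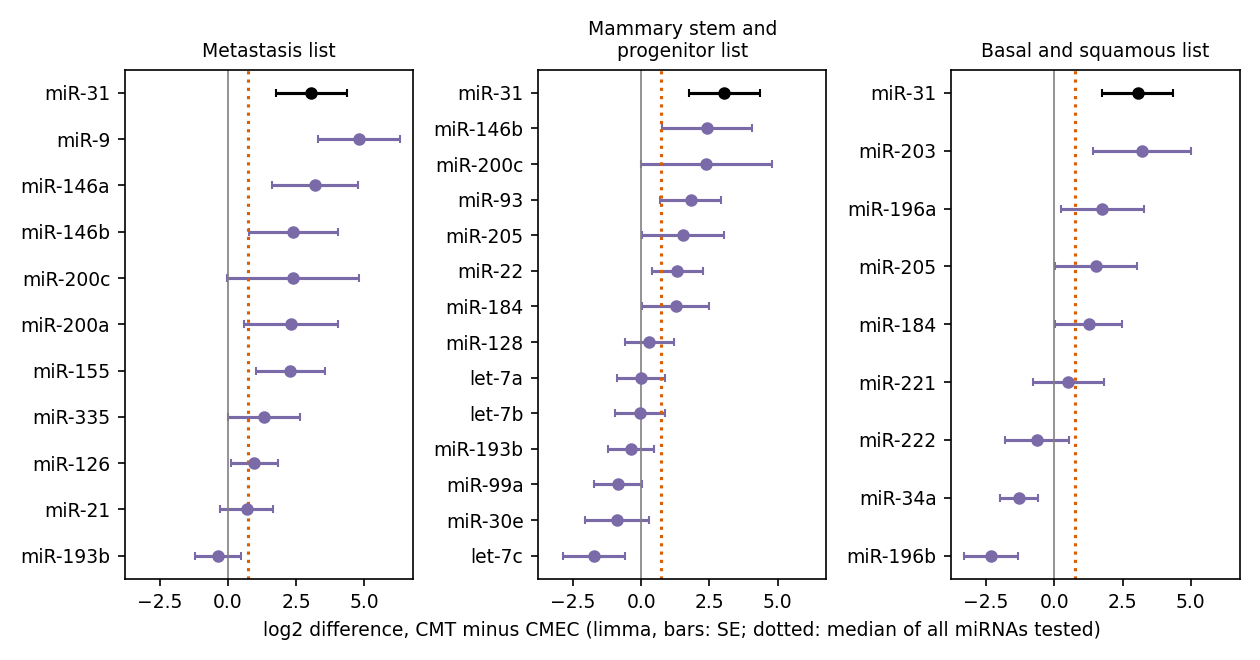
log2 difference, CMT minus CMEC, of miR-31 (black) and of the tested members of 3 lists, with SE bars from limma, a grey line at 0 and a dotted line at the median of all 193 miRNAs tested (0.75). miR-31 lies at 3.05, between miR-146a (3.18) and miR-146b (2.40) in the left panel, and 0 of the miRNAs drawn passed the threshold.

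Of 13 miRNAs described in mammary stem and progenitor cells, all 13 were tested and 0 passed in either direction. In limma, 0 of the 13 had an unadjusted p under 0.05, against 21 of all 193 (10.9%). Their median difference was 0.31, against 0.75 for all miRNAs tested, with 7 of 13 below that median. The distance of -0.44 was -1.0005 without CMEC1 and -0.13 without CMEC3. let-7c, of a family kept low in mouse mammary progenitor cells, spanned 95.1 to 2656 across CMT and 1159 to 4047 across CMEC, a difference of -1.72 ± 1.15 (SE, limma adjusted p = 0.537). miR-93, of the miR-106b-25 cluster, was at 1718 in CMT-27 and 168 to 262 in the rest of CMT, against 39.7 to 243 across CMEC. miR-22, described as widening the stem cell pool of the mouse mammary gland, spanned 2296 to 9102 across CMT and 694 to 5307 across CMEC.

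Of 8 tested miRNAs of basal and squamous epithelia, 0 passed in either direction and 1 (miR-196b) had an unadjusted p under 0.05, against 21 of all 193 (10.9%). Their median difference was 0.89, against 0.75 for all, with 4 of 8 above that median. The distance of 0.14 turned negative when any of 5 libraries was left out, at -0.35 without CMEC3, -0.34 without CMT-47, -0.18 without CMT-12, -0.13 without CMT-27 and -0.086 without CMT-119. It was 0.33 without CMEC1 and 0.47 without CMT-28. miR-205, a marker of basal mammary cells, was at 473 in CMT-12 and 1 to 15.2 in the rest of CMT, against 1 to 5.67 across CMEC. In CMT-27, where miR-31 was highest, miR-205 was at 3.46. miR-221 spanned 206 to 5180 across CMT and 229 to 4934 across CMEC, and miR-196b spanned 1 to 8.89 across CMT and 10.9 to 26.3 across CMEC. As deposited, miR-196b thus had the opposite order to miR-31, with every CMT line below every CMEC sample. It was 1 of 3 such miRNAs among the 193 (1.55%). The count of such miRNAs was 5 on the share scale and 7 after median centring. miR-196b was not among those 5. The summed value was smaller in CMT-28 (327119) than in CMEC1 (440060), so the share of miR-196b was larger in CMT-28 than in CMEC1.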

How the data were processed

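Small RNA libraries of 8 vesicle samples were analysed from 1 deposited table. The libraries were made from 500 ng of RNA and read from 1 end over 50 bases, per the labels. The values deposited by the authors are a normalised signal per locus, linear, with a floor of 1. The submitters' processing notes name canFam3; for the aligner, the counter and the scaling, a method is not given in the sources used here. All 8 columns were matched to samples by the identifiers in the labels.

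The 511 loci were reduced to 452 miRNAs by taking, for each, its locus of highest mean. Reads were recovered as value divided by the step of the library: up to 200 steps, 100% of the values above the floor were whole within 0.05 steps. This scale was read from the values. The floor can hide up to 2 reads in CMT-28 and 1 in CMT-27, CMT-47 and CMT-119.

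The 193 miRNAs that exceeded the floor in 3 or more of 8 libraries were fitted with limma 3.58.1 (trend) in R 4.3.3 on log2(value + 1), CMT minus CMEC, with Benjamini-Hochberg adjustment at 0.05. The script was tested on simulated data. Within-library scales, and as an alternative the log2 difference of miR-31, were tested over all 56 splits (two-sided exact permutation, where the smallest p is 0.0179). The p-values of limma and of the permutation tests measure the spread between these libraries, while those of Fisher's exact test measure counting error alone. Named miRNAs were miR-31, miR-21, the 5 nearest in pattern, the neighbours in mean share, list members, and the leading marker of other cell types. Members and lists were chosen with earlier results of these data known. Alternatives covered pseudocount, filter, scaling, model and each library left out.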

Additional observations from a re-analysis of the deposited data

Results flagged for a closer look

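In the 5 CMT lines, 34 values (miR-31 on 4 scales, and the log2 values of named miRNAs) were screened for a line far from the others, and 5 stood out. About 1 in 20 would do so by chance. Groups of 3, such as CMEC, were not screened. miR-31 in CMT-27 stood out on 2 of the 4 scales: its log2 value was 8.45, against 3.55 in the next line, and its share of the summed value was 0.0358%, against 0.00272%. These 2 are the same reads on 2 scales. miR-93 was also high in CMT-27, at a log2 value of 10.75 against 8.04 in the next line. miR-22 was low in CMT-12, at 11.2 against 12.6, and miR-184 was at 1 in CMT-28, the floor on this scale, against 4.11 in the next line up. The causes were not tested.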

How the results depend on the processing

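miR-31 was higher in CMT under every alternative that could test it. limma passed it only with sample weights (2.45, adjusted p = 0.0489). In the others the difference ran from 1.53 with a pseudocount of 10 to 3.73 with 0.1. It was 2.32 after median centring and 3.63 with limma-voom on recovered reads, which called 0 miRNAs. With each library left out it ran from 1.96 to 3.64. limma called 15 miRNAs with sample weights and 0 to 6 with each library left out (6 without CMEC1). On the other scales, an unadjusted exact permutation p fell under 0.05 with the log2 of the share (3.53), for the share without CMT-27 (0.00156%), for the difference to the library median without CMT-12 (2.69), and for the difference to miR-21 with a pseudocount of 0.1 (3.04) and with let-7a in its place (3.07). Each of these p-values takes the floor as the value of CMEC2 and CMEC3. With each library left out, the share difference ran from 0.00156% to 0.0102%. The difference to the library median then ran from 1.53 to 2.69 and that to miR-21 from 1.56 to 2.84. Relative to all miRNAs, the list medians ran from 0.48 to 2.11 (metastasis), -1.0005 to -0.13 (mammary stem) and -0.35 to 0.47 (basal and squamous). The causes were not tested. Testing only miRNAs above the floor in all 8 libraries gives no value for miR-31, which is above it in 6. The planned edgeR and DESeq2 fits were not run. The floor of 1 is not a whole multiple of the step of a library, so the values as deposited were not accepted as counts. Of count models, only limma-voom was run, on the recovered reads. No paired analysis was possible because the lines and the CMEC samples share no pairing in the labels.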
